A study of Mus musculus with 5 samples.

Results

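The AP-1 family of transcription factor genes was followed through stem and progenitor cells sorted from the bone marrow of MSI2-inducible and control mice. Its 9 genes were Fos, Fosb, Fosl1, Fosl2, Jun, Junb, Jund, Atf3 and Batf. They were taken as every array probe set whose platform annotation names exactly 1 gene symbol, equal to one of these, which gave 13 of the 45037 probe sets tested. Fosl1, Fosl2, Jun and Jund had more than 1 probe set each. In 2 samples the RNA came from MSI2-inducible mice, and in 3 it came from control rtTA mice, which carry rtTA, a transactivator that turns on its target transgenes in the presence of doxycycline. All samples are labelled as bone marrow cells of the C57BL/6 strain. The labels give no age, promoter of the transactivator or induction schedule, and do not state that replicates are different animals. The p-values therefore reflect array-to-array spread, part of which may be technical. The sample labels describe lineage-low cells with Sca1 and Kit, while the text of the series has the Kit-positive, Sca1-negative gate instead.

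AP-1 is a dimer of proteins that share a basic region, which touches DNA, and a leucine zipper, which holds the pair together. Jun proteins can pair with each other or with Fos proteins, whereas Fos proteins need a Jun-type partner. Fos, Fosb, Jun, Junb and Atf3 are immediate early or stress-induced genes, transcribed within minutes of a growth factor, cytokine or stress signal from factors already present in the cell. In blood-forming cells AP-1 proteins take part in myeloid differentiation and in responses to cytokines, and loss of Junb in mouse stem cells leads to a myeloproliferative disorder.

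Array values were alike between groups, with Pearson correlations over probe sets of 0.957 to 0.982 between MSI2-inducible and control arrays, 0.971 between the MSI2-inducible arrays and 0.973 to 0.984 among control arrays. Levels below are given as log2 intensity, and every difference is the MSI2-inducible mean minus the control mean on that scale. The brightest mouse Msi2 probe set lay at 11.00 and 11.43 in MSI2-inducible arrays, against 11.67, 11.76 and 11.74 in control arrays. It was lower by -0.51 on average and did not pass limma's test (adjusted p 0.871). Another bright Msi2 probe set (-0.32) also had both MSI2-inducible arrays below every control array. The remaining bright ones (-0.24 and -0.17) overlapped between groups. The dimmer ones, which differed by -0.27 to 0.05, overlapped too. The labels do not say whether a probe set reads the transgene. Kit, the receptor used in the sort, lay at 8.80 and 9.50 in MSI2-inducible arrays and at 9.19, 9.35 and 9.66 in control arrays. All 9 stem and progenitor markers with a value, of 11 listed, averaged above the median probe set (5.57). Of the 9, 7 were lower in MSI2-inducible arrays, where 50.4% of all genes were higher. Slamf1 (difference -1.27) and Mecom (-0.58), both stem cell genes, had both MSI2-inducible arrays below every control array, where 9.39% of all genes did so. Neither passed limma's test (adjusted p 0.871 and 0.840). Other Slamf1 probe sets differed by -1.10 and -0.76. Dimmer Mecom probe sets differed by 0.54, with both MSI2-inducible arrays above every control array, and by 0.07. The part of both genes in the results below was not tested. Ly6a, which encodes Sca1, was not analysed here. In these bulk samples, fewer cells of a type and less RNA per cell cannot be told apart.

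Some of the family's promoters are shown because these genes had the largest positive differences or, for Jun, 2 probe sets with like differences; they were chosen after their values were seen. Each is the 250 bases before the annotated start, 5′ to 3′ on the gene's strand, from RefSeq (GRCm38.p6). Capitals mark the cAMP response element (CRE) core TGACG on either strand, the CRE-like motif TGACNTCA, and TATAAA. The windows are Fos at chr12:85473640-85473889, plus strand; Fosb at chr7:19310046-19310295, minus strand; Jun at chr4:95052223-95052472, minus strand; Junb at chr8:84978749-84978998, minus strand; and Atf3 at chr1:191183334-191183583, minus strand.
Fos: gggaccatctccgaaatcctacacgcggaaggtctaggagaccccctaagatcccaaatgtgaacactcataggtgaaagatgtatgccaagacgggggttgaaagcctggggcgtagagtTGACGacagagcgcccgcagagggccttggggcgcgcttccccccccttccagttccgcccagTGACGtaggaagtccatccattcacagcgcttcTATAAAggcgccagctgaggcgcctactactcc
Fosb: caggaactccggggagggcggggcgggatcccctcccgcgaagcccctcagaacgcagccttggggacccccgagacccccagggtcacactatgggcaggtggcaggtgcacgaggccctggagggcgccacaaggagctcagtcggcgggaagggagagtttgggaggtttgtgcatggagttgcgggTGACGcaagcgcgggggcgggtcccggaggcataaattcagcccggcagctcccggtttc
Jun: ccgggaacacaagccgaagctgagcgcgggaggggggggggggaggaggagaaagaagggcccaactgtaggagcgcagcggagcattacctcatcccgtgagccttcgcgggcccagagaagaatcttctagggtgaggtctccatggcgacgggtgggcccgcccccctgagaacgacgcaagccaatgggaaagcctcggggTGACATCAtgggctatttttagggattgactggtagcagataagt
Junb: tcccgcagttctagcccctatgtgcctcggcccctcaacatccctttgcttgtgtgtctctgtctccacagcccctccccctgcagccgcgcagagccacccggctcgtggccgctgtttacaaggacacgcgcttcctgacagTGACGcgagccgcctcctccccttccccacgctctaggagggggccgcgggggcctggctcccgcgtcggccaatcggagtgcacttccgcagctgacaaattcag
Atf3: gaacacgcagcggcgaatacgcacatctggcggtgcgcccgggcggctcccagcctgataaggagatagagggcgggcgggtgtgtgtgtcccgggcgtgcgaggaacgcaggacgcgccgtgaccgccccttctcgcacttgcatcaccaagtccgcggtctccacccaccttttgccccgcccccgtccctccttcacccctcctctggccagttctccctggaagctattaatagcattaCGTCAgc

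Of 8 family members with a promoter entry, 5 held TGACG on either strand, namely Fos, Fosb, Junb, Atf3 and Batf, against 17.77% of 32851 mouse promoter windows of the same length. Fos held this core at 2 places, beginning 129 and 66 bases before the start, and was the only one of the 8 with TATAAA, which began 33 bases before the start and occurs in 12.37% of windows. The core of Fosb began 60 bases before the start and that of Junb 106. In Atf3 it lies on the other strand, 7 bases before the start. Jun held TGACATCA, a match to TGACNTCA, 45 bases before the start, and 7.49% of windows hold a match to that motif, which includes the full CRE, TGACGTCA (1.55%). No window of the 8 held TGACGTCA, TGANTCA, the AP-1 site itself (6.75% of windows), or a CArG box, the core of the serum response element (1.47%). Bases farther than 250 before the start were not searched, so these absences hold for the windows alone and not for the genes. A match is a description of letters in these windows and not a measured binding site.

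Fos, Fosb, Jun, Junb and the brighter Fosl1 probe set had higher values in both MSI2-inducible arrays than in any control array. No family member passed the test. Among 13 probe sets, 6 had both MSI2-inducible arrays above every control array and 1 had both below, where 9.26% and 9.66% of all probe sets did so. None of the 13 passed limma at an adjusted p of 0.05, a threshold that 0.00444% of all probe sets passed as higher and 0% as lower. At an unadjusted limma p under 0.05, 3 probe sets (Fos, Fosb and Junb) were higher and 0 lower, against 2.87% and 2.81% of all probe sets. Adjusted p over the 13 lay between 0.841 and 0.995.

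**Figure D1:**
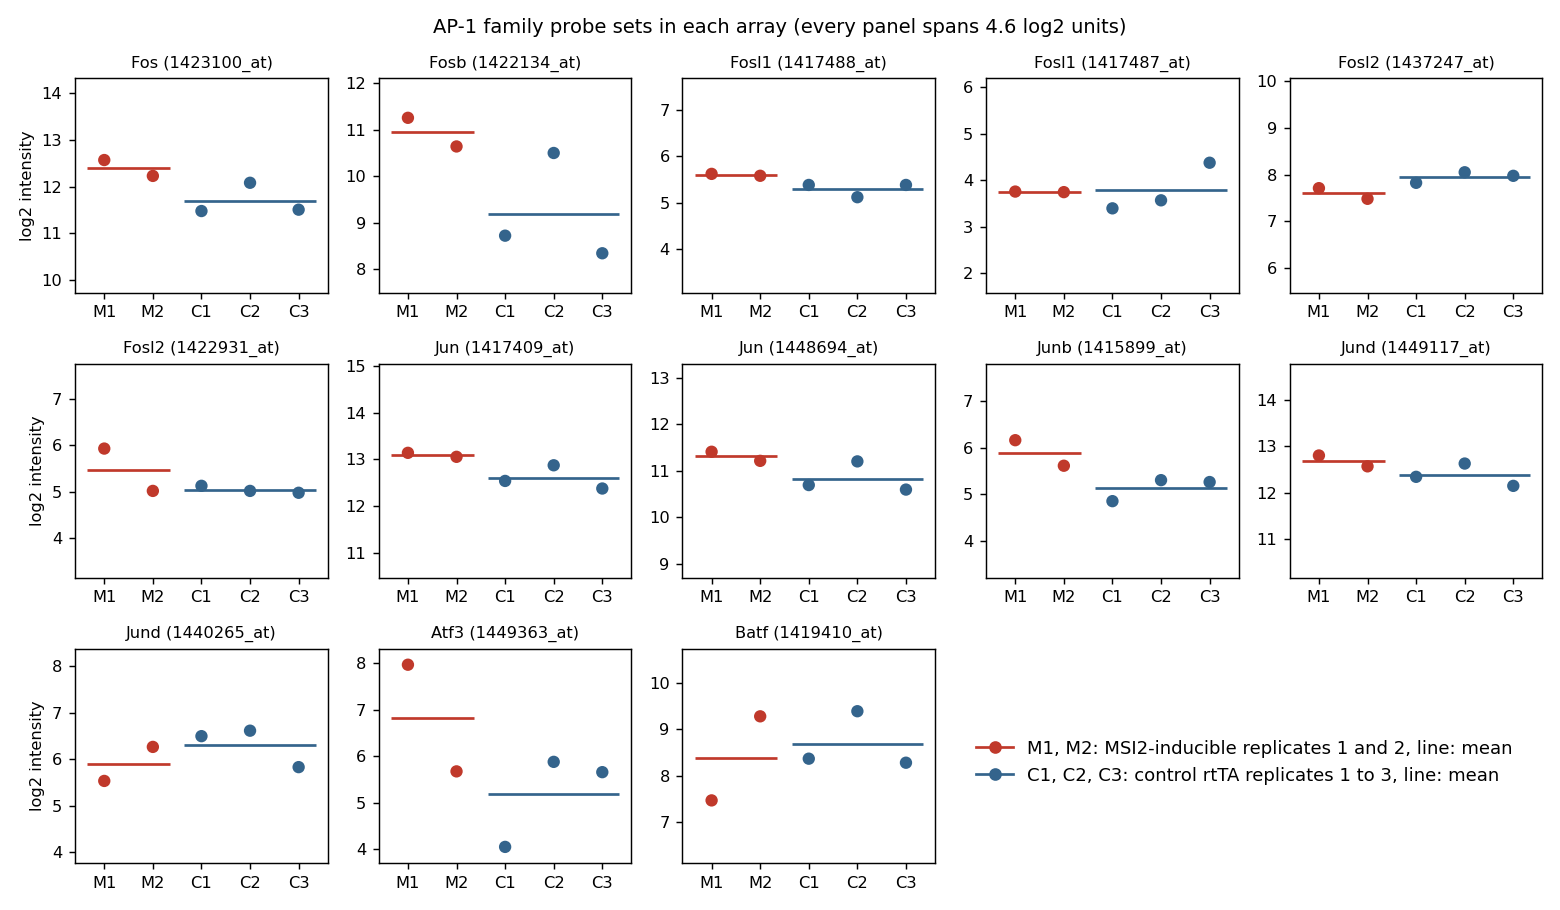
Log2 intensity (vertical axes, each spanning the same number of log2 units) of the 13 AP-1 family probe sets in each array, with MSI2-inducible arrays in red, control rtTA arrays in blue and group means as lines. Fosb control values run between 8.35 and 10.50, and control replicate 2 lies near the MSI2-inducible arrays for Fos, Fosb, Jun and Jund.

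Fos encodes the founding Fos protein, which cannot pair with itself and needs a Jun partner. Its single probe set read 12.57 and 12.23 in MSI2-inducible arrays, against 11.48, 12.08 and 11.50 in control arrays. Both MSI2-inducible values lay above every control value, although the lower of them exceeded control replicate 2 by only 0.15. Means were 12.40 ± 0.24 (SD, n = 2) in MSI2-inducible and 11.69 ± 0.34 (SD, n = 3) in control arrays. The difference of 0.71 (SE 0.26, 95% interval 0.06 to 1.37), or 1.64-fold, had a limma adjusted p of 0.853.

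Fosb, a close relative of Fos that is induced by many of the same signals, had the largest difference of the family. It read 11.25 and 10.64 in MSI2-inducible arrays, against 8.72, 10.50 and 8.35 in control arrays. Control replicates 1 and 3 were low, while control replicate 2 lay 0.14 under the lower MSI2-inducible array. The difference was 1.76 (SE 0.67, 95% interval 0.10 to 3.42), or 3.38-fold, with a limma adjusted p of 0.853. Its control SD of 1.15 was larger than that of 99.6% of the 2325 probe sets within 0.5 log2 units of its mean. Taken likewise by the brightest probe set, this share was 95.7% for Fos, 97.3% for Jun and 94.2% for Jund. It was 94.9% for Atf3 and 94.3% for Batf, but 40.1% for Junb, 21.6% for Fosl1 and 13.2% for Fosl2.

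Fosl1 and Fosl2 encode Fra-1 and Fra-2, Fos relatives that in many cells are induced later and lack the strong activation domain of Fos. The brighter Fosl1 probe set read 5.62 and 5.58 in MSI2-inducible arrays, against 5.38, 5.12 and 5.38 in control arrays, so the groups did not overlap, with a difference of 0.31 (95% interval -0.15 to 0.76). Its dimmer probe set read 3.76 and 3.75 in MSI2-inducible arrays and 3.40, 3.57 and 4.38 in control arrays, which overlapped. Both Fosl1 probe sets averaged under the median probe set (5.57), where differences are uncertain in size.

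The 2 Fosl2 probe sets disagreed. The brighter one read 7.71 and 7.48 in MSI2-inducible arrays, against 7.82, 8.05 and 7.97 in control arrays, and was the one family probe set with both MSI2-inducible arrays below every control array (difference -0.35, 95% interval -0.81 to 0.10). The dimmer one read 5.93 and 5.02 in MSI2-inducible arrays and 5.13, 5.02 and 4.98 in control arrays, a difference of 0.43 carried by MSI2-inducible replicate 1. Neither passed limma's test (adjusted p 0.895 and 0.901).

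Jun, the main partner of Fos proteins and able to pair with itself, was read by 2 probe sets with like results. The brighter gave 13.14 and 13.06 in MSI2-inducible arrays, against 12.54, 12.88 and 12.38 in control arrays. The other gave 11.41 and 11.22 in MSI2-inducible arrays, against 11.20 in control replicate 2 and 10.70 and 10.60 in control replicates 1 and 3. In both, the MSI2-inducible arrays lay above every control array, by a gap of 0.18 in the first and 0.01 in the second. Differences were 0.50 (SE 0.21, 95% interval -0.03 to 1.04) and 0.48 (SE 0.25, 95% interval -0.13 to 1.09), or 1.42-fold and 1.39-fold, with limma adjusted p of 0.872 and 0.895.

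Junb, a Jun relative that can restrain Jun and limits myeloid expansion in mice, read 6.17 and 5.62 in MSI2-inducible arrays, against 4.86, 5.31 and 5.27 in control arrays. The groups did not overlap, and their gap of 0.31 was the widest among family probe sets with higher MSI2-inducible values. The difference was 0.75 (SE 0.26, 95% interval 0.10 to 1.39), or 1.68-fold, with a limma adjusted p of 0.841. Its one probe set averaged under the median probe set (5.57), so the size of this difference is uncertain too.

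Jund, the Jun gene that is usually present in resting cells rather than induced, overlapped between groups in both probe sets. The brighter read 12.80 and 12.57 in MSI2-inducible arrays, against 12.34, 12.63 and 12.15 in control arrays, a difference of 0.31 (95% interval -0.23 to 0.85). The dimmer read 5.53 and 6.26 in MSI2-inducible arrays, against 6.49, 6.61 and 5.83 in control arrays, a difference of -0.41 (95% interval -1.27 to 0.44). Control replicate 2 was the highest control array in both, and in the brighter one it lay above MSI2-inducible replicate 2.

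Atf3, a stress-induced member that often acts as a repressor, varied most within the MSI2-inducible group. It read 7.96 and 5.67 in MSI2-inducible arrays, against 4.05, 5.88 and 5.66 in control arrays. Only MSI2-inducible replicate 1 lay above the control arrays, and replicate 2 lay between control replicates 3 and 2. The control mean of 5.20 lay under the median probe set (5.57), so the size of the difference is uncertain. The difference was 1.62 (SE 0.84, 95% interval -0.47 to 3.72), with a limma adjusted p of 0.895, and it was 0.48 without MSI2-inducible replicate 1. Mature neutrophil markers were also highest in that array. Their summed intensity over 9 measured genes of 10 listed, none at 0, was 63305 and 11773 in MSI2-inducible arrays, against 26799, 14281 and 26815 in control arrays. Its part in the Atf3 value was not tested.

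Batf lacks an activation domain, pairs with Jun proteins and, in mouse blood stem cells, is tied to differentiation after DNA damage. It read 7.47 and 9.28 in MSI2-inducible arrays, against 8.37, 9.39 and 8.28 in control arrays. The MSI2-inducible arrays were the lowest and the second highest of the 5, and the difference of -0.30 (95% interval -1.83 to 1.23) had a limma adjusted p of 0.970. Without MSI2-inducible replicate 1 the difference was 0.60, and without control replicate 2 it was 0.05.

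**Figure D2:**
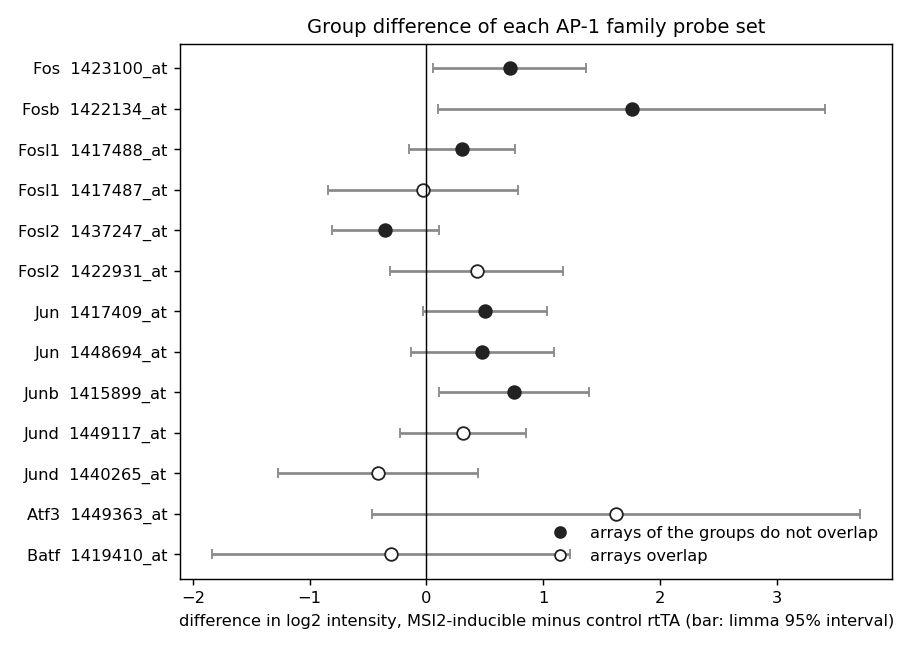
Difference in log2 intensity, MSI2-inducible minus control rtTA (horizontal axis), for each AP-1 family probe set, with limma 95% intervals as bars. Filled points mark probe sets whose groups do not overlap. The intervals of Fos, Fosb and Junb lie above 0, and those of Atf3 and Batf are wide.

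Taking each gene by its brightest probe set, 7 of the 9 members were higher in MSI2-inducible cells and 2 were lower, with a median difference of 0.50, beside 50.4% of 18193 genes higher and a median of 0.00 over all genes. Both MSI2-inducible arrays lay above every control array for Fos, Fosb, Fosl1, Jun and Junb, 5 of 9, and below for Fosl2, 1 of 9, where the shares of all genes were 9.27% and 9.39%. Set against each gene's control mean, the 9 genes had a median of 0.55 in MSI2-inducible replicate 1 and 0.47 in replicate 2, and of -0.21, 0.28 and -0.18 in the control arrays in order of replicate number.

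Control replicate 2 was the highest control array for 8 of the 9 genes, all but Fosl1, where 39.4% of all genes had that array highest. Against its control mean, Fosb stood at 2.06 and 1.45 in the MSI2-inducible arrays, at 1.31 in control replicate 2 and at -0.47 and -0.84 in control replicates 1 and 3. Without control replicate 2 the differences were 0.91 for Fos, 2.41 for Fosb, 0.64 and 0.67 for the Jun probe sets and 0.83 for Junb, and limma adjusted p lay between 0.663 and 0.885. The groups then did not overlap, with MSI2-inducible higher, in 7 of 9 genes. Non-overlap is easier to reach with fewer control arrays, and the share of all genes was not computed for this comparison. With each array left out in turn, the differences ran between 0.54 and 0.91 for Fos, 1.34 and 2.41 for Fosb, 0.39 and 0.64 for the first Jun probe set, 0.36 and 0.67 for the second, and 0.47 (without MSI2-inducible replicate 1) and 1.02 for Junb.

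Other measures of this array did not set it apart in the same way throughout. The Gapdh 3′ minus 5′ log2 signal, a measure of RNA quality, was 2.22 in both MSI2-inducible arrays, against 2.14, 2.60 and 2.40 in control replicates 1, 2 and 3. The same signal of beta-actin was -0.06 and -0.07 in MSI2-inducible arrays, against -0.15, -0.15 and 0.01 in control replicates 1, 2 and 3. The summed intensity of all 7 endothelium and stroma markers, none at 0, was highest in this array, with sums of 338 and 574 in MSI2-inducible arrays and 754, 1005 and 827 in control replicates 1, 2 and 3. Cxcl12, a chemokine of marrow stroma, weighed most on the sum of control replicate 2. It read 4.61 and 5.79 in MSI2-inducible arrays, against 6.33, 8.79 and 6.95 in control arrays. Endothelial genes of the list differed from each other in this array. Cdh5, which averaged under the median probe set, read 4.17 and 3.74 in MSI2-inducible arrays, against 4.15, 6.88 and 3.89 in control arrays. Pecam1 read 6.85 and 7.73 in MSI2-inducible arrays, against 8.53, 7.22 and 8.52 in control arrays. Mast cell, basophil and eosinophil markers (6 measured of 7 listed, none at 0) summed to 860 and 352 in MSI2-inducible arrays, against 1397, 266 and 1042 in control replicates 1, 2 and 3. The part of these in the family's values was not tested.

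**Figure D3:**
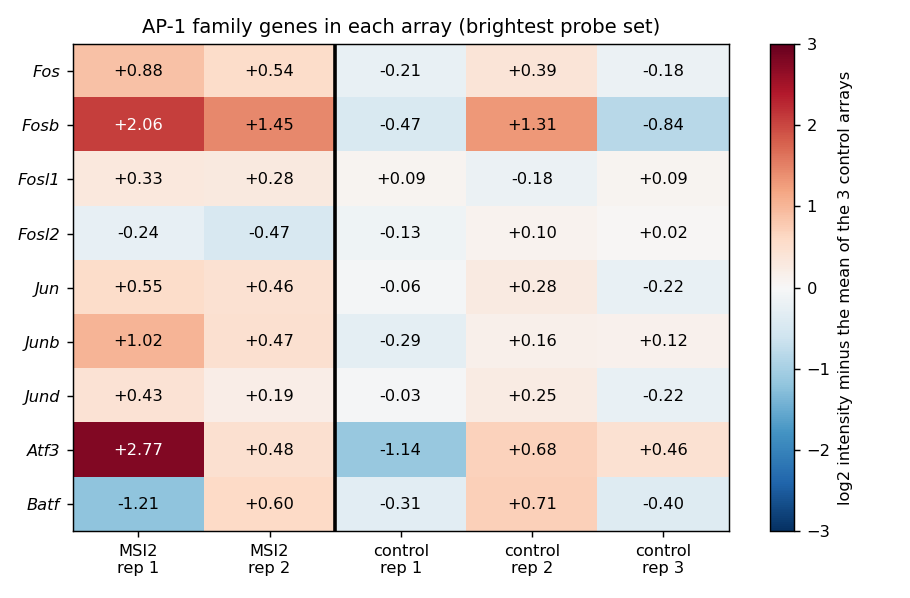
Log2 intensity of each AP-1 family gene, by its brightest probe set, minus the mean of the 3 control arrays (colour and printed number), with MSI2-inducible arrays left of the line and control rtTA arrays right of it. Fosb reaches 2.06 in MSI2-inducible replicate 1 and 1.31 in control replicate 2, and Batf is lowest (-1.21) in MSI2-inducible replicate 1.

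Of all genes outside the family above the median probe set (10559), the trafficking adaptor genes Ap4b1 and Ap5s1 and the chromatin regulator Ing2 followed Fos most closely over the 5 arrays, with Euclidean distances of 0.15 for Ap4b1, 0.16 for Ing2 and 0.18 for Ap5s1, in log2 units, after each was centred on its control mean. Ing2, for example, read 10.51 and 10.31 in MSI2-inducible arrays, against 9.45, 9.95 and 9.48 in control arrays. The genes nearest to Atf3 were farther away, with distances of 1.08 for Lrrc19, 1.36 for Gfm2 and 1.38 for Ppp1r12b. Distances were not scaled and Atf3 varied more between arrays than Fos, so distances to Fos and to Atf3 cannot be compared. Such closeness over 5 arrays is a description of these arrays.

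Upstream of the family, kinases and factors that switch on Fos and Jun differed little as a group. The list had 16 of its 19 genes measured, 10 higher and 6 lower, with a median difference of 0.01 beside 0.00 over all genes. It includes the kinases of the MAPK cascades, the serum response factor Srf and its Elk partners. Mapk7, the ERK5 kinase, read 7.58 and 6.70 in MSI2-inducible arrays, against 6.60, 7.03 and 6.10 in control arrays, a difference of 0.56. Map2k4, which activates JNK, differed by 0.36, though its second probe set by 0.01. Map2k2, a kinase that activates ERK, differed by 0.34. The Srf partner Elk4 differed by -0.27, and its other probe sets by -0.27, -0.03 and 0.01. None of the 16 passed limma's test, and at an unadjusted p under 0.05 none was higher or lower, where 2.48% and 2.36% of all genes were.

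Other basic leucine zipper genes can pair with AP-1 proteins or compete with them. Of these, 8 of 12 measured genes were higher, with a median of 0.03, beside 50.4% and 0.00 over all genes. Maff, a small Maf protein that lacks an activation domain, read 9.20 and 8.70 in MSI2-inducible arrays, against 6.94, 7.27 and 6.68 in control arrays. Its groups were well apart, with a difference of 1.99 (SE 0.27) and a limma adjusted p of 0.368. Batf2 differed by -0.39 and the stress factor Ddit3 by 0.35. Atf7 differed by -0.39, but its second probe set by 0.24. None of the 12 passed limma's test, and at an unadjusted p under 0.05, 1 was higher and 0 were lower, against 2.48% and 2.36% of all genes.

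Off switches of AP-1 signalling had 8 of 11 measured genes higher, with a median of 0.41, beside 50.4% and 0.00 over all genes. Both MSI2-inducible arrays lay above every control array for 5 genes and below for 1, Dusp16, against 9.27% and 9.39% of all genes. Dusp1 and Dusp2 encode phosphatases that turn off MAP kinases and are themselves induced by them. Dusp1 read 12.55 and 12.38 in MSI2-inducible arrays, against 11.77, 12.13 and 11.67 in control arrays, a difference of 0.60 (SE 0.21). Dusp2 differed by 0.75 (SE 0.19) and Zfp36, which destabilises early response mRNAs, by 0.56, both without overlap, whereas the difference of 0.81 for Dusp5 came with overlapping arrays. No gene of the list passed limma's test, with a lowest adjusted p of 0.651, and 2 were higher and 0 lower at an unadjusted p under 0.05, against 2.48% and 2.36% of all genes.

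Textbook targets of AP-1 differed in both directions. Of 17 measured genes, 13 were higher and 4 lower, with a median of 0.41, beside 50.4% higher and 0.00 over all genes. Both MSI2-inducible arrays lay above every control array for 2 of them and below for 3, against 9.27% and 9.39% of all genes. The haem-degrading enzyme Hmox1 read 5.57 and 5.63 in MSI2-inducible arrays, against 7.13, 7.28 and 6.51 in control arrays, a difference of -1.38 (SE 0.28, limma adjusted p 0.557). The matrix protease Mmp9, which neutrophils also carry, read 8.12 and 4.86 in MSI2-inducible arrays and 5.23, 4.52 and 4.97 in control arrays. Like Atf3, it was high in MSI2-inducible replicate 1 alone, and so was the urokinase receptor Plaur, at 8.73 and 6.92 in MSI2-inducible arrays, against 6.99, 6.87 and 7.04 in control arrays. The metallothionein Mt2 differed by 0.78 with overlapping arrays. None of the 17 passed limma's test, and at an unadjusted p under 0.05, 0 were higher and 2 lower, against 2.48% and 2.36% of all genes.

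Immediate early genes outside the family had 26 of 28 members higher, a median of 0.82, and 16 with both MSI2-inducible arrays above every control array, where 50.4% of all genes were higher and 9.27% did not overlap in that direction. These lists were written with earlier results of these data known, so the count is not independent evidence of a direction. The nuclear receptor Nr4a1 read 8.94 and 7.86 in MSI2-inducible arrays, against 5.59, 5.83 and 5.56 in control arrays. Differences were 2.74 for Nr4a1, 2.17 for Egr2, 1.86 for Tnfaip3, which dampens NF-kappaB, and 1.73 for Nfkbiz, whose other probe sets differed by 0.60 and -0.20. The Egr2 probe set averaged under the median probe set (5.57), so the size of its difference is uncertain. None of the 28 passed limma's test over all probe sets (lowest adjusted p 0.211), and 15 were higher and 0 lower at an unadjusted p under 0.05, against 2.48% and 2.36% of all genes. Control replicate 2 was the highest control array for 22 of the 28, as it was for 8 of 9 family members, against 39.4% of all genes.

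Heat shock chaperones were all higher, 10 of 10 measured, with a median of 0.30, where 50.4% of all genes were higher. None passed limma's test, and at an unadjusted p under 0.05, 4 were higher and 0 lower, against 2.48% and 2.36% of all genes. Hspa1a and Hspa1b, near-identical copies whose probes cannot be assumed to tell them apart, differed by 4.36 and 3.85, Hsph1 by 0.96 and Hsp90aa1 by 0.55, with its other probe sets between -0.12 and 0.54. The Hspa1a control mean of 4.84 lay under the median probe set (5.57), so the size of its difference is uncertain. Control replicate 2 was the highest control array for 3 of these 10 genes, against 39.4% of all genes and 8 of the 9 AP-1 family members.

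**Figure D4:**
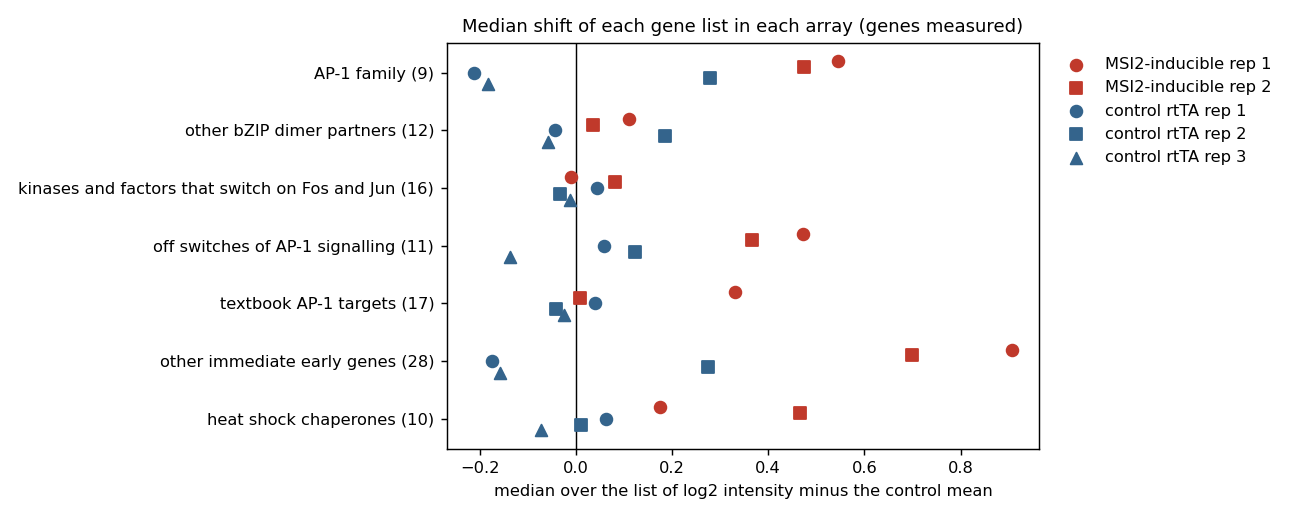
Median over each gene list of log2 intensity minus the control mean (horizontal axis), one symbol per array, red for MSI2-inducible and blue for control rtTA, with the number of genes measured beside each list. AP-1 family medians are 0.55 and 0.47 in MSI2-inducible arrays and -0.21, 0.28 and -0.18 in control arrays, while the upstream kinases stay near 0 in every array.

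Some marker lists separated the groups. Megakaryocyte markers (6 measured of 7 listed, none at 0) summed to 835 and 1046 intensity units in MSI2-inducible arrays, against 1886, 1545 and 1550 in control arrays, and the endothelium and stroma sums given above were likewise lower. By gene, 5 of the 6 megakaryocyte markers were lower, where 50.4% of all genes were higher. The platelet gene Pf4 (difference -1.38) and Vwf (-0.95) made up much of the megakaryocyte difference, with limma adjusted p of 0.610 and 0.545. Ppbp (-0.93), which averaged under the median probe set, overlapped between groups. Itga2b differed by -0.07 and Gp9 by 0.11. Erythroid markers (7 of 9, none at 0) summed to 6756 and 2844 in MSI2-inducible arrays and 2866, 1641 and 1749 in control arrays, which overlapped. By gene, 6 of the 7 were higher, with a median difference of 1.16, beside 50.4% and 0.00 over all genes. Car1 (1.24) and Epor (1.16) had both MSI2-inducible arrays above every control array, against 9.27% of all genes. Slc4a1 (1.95, other probe sets 0.18 and 1.89) and Klf1 (1.68) overlapped. The lowest limma adjusted p was 0.610. The part of these marker lists in the family's values was not tested.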

How the data were processed

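RNA from sorted bone marrow cells was measured on 5 Affymetrix mouse expression arrays after linear amplification, per the labels' protocols. The authors deposited 1 normalized intensity per probe set and array, on a linear scale. The submitters' processing notes list RMA, affy and R 2.11.0; how RMA's log values were turned back into linear ones was not stated. Array medians lay between 46.4 and 48.3, and the number of arrays limits precision.

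The log2 of each intensity was taken, with no pseudocount. The 64 array control probe sets were left out, and 45037 were tested by lmFit and eBayes of limma 3.58.1 (R 4.3.3) with group as the only term, two-sided, with Benjamini-Hochberg adjustment over all of them. Symbols came from the platform annotation (34958 probe sets with 1 symbol, 932 with several), updated by Entrez ID for 34754. For lists, the brightest probe set stood for its gene (18193 genes). The fit was tested on simulated data. Promoter windows and motifs were read from RefSeq tables.

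The members and gene lists were chosen with earlier results of these data known. Text names all members, Msi2, up to 4 genes per list with the largest absolute difference, and the 3 genes nearest to Fos and to Atf3 over 5 arrays. Kit was named beyond this rule as a check of the sort, and Itga2b and Dusp16 were also named beyond it. Of the marker lists, mature neutrophil, mast cell, endothelium, megakaryocyte, erythroid and stem cell ones are given in the results, and the others in the closing section. Alternatives covered normalization, low values, variance model, array weights, the replicate number as a block, the pseudocount, gene values, the threshold, and each array left out.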

Additional observations from a re-analysis of the deposited data

How the results depend on the processing

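No member probe set passed limma's test under any alternative run (lowest adjusted p 0.289). Of 152 member values recomputed, 147 kept their direction and 5 turned, none of them under a rescaling of the arrays. With the replicate number as a block the dimmer Fosl1 probe set turned to 0.27 and 0 probe sets of the whole array were higher; only 2 pairs exist, nothing in the labels pairs them, and deviations of same-numbered arrays correlated at 0.118 and 0.0708. Left-out arrays turned Batf (range -1.21 to 0.60; 0.60 without MSI2-inducible replicate 1 and 0.05 without control replicate 2), the dimmer Fosl2 probe set (-0.0230 to 0.89) and the dimmer Fosl1 probe set (-0.22 to 0.27). The cause was not tested. Over the whole array 2 probe sets were higher and 0 lower, against 1 higher with array weights, 1 lower with low values left out, at an adjusted p of 0.10 and with 1 probe set per gene, and 0 to 0 higher with an array left out, where a single MSI2-inducible array takes its spread from the control arrays. Genes with both MSI2-inducible arrays above every control array numbered 5 of 9, 4 of 9 with the mean of a gene's probe sets, and 3 of 7 with low values left out, a filter that removes Fosl1 and Junb. Leaving out a control array gave 5 to 7, where non-overlap is easier to reach and no share of all genes was computed. The members' median difference stayed between 0.39 and 0.64. Signal near the floor limits Fosl1, Junb, the dimmer Fosl2 probe set and the control values of Atf3. With 16 added to each intensity before the log2, the Atf3 difference was 1.29.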

Other observations

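Markers of other cell types not described above were mixed. Monocyte and macrophage markers (8 measured of 9, none at 0) summed to 1931 and 1124 intensity units in MSI2-inducible arrays and 1362, 1108 and 1401 in control arrays, B cell markers (5 of 6, none at 0) to 4113 and 845 in MSI2-inducible arrays and 2049, 1156 and 988 in control arrays, and T and NK cell markers (8 of 10, none at 0) to 832 and 708 in MSI2-inducible arrays and 1128, 646 and 846 in control arrays. All 3 overlapped between groups. Within the monocyte list 7 of the 8 genes were higher, with a median difference of 0.21, beside 50.4% and 0.00 over all genes. The chemokine receptor Ccr2 read 8.50 and 8.09 in MSI2-inducible arrays, against 6.78, 6.72 and 6.38 in control arrays, higher by 1.67 (limma adjusted p 0.368). Its other probe sets differed by 1.76, 1.79 and 0.22. C1qb was lower (-0.86), with overlapping arrays. In the T and NK list Ccl5 differed by 1.56, while 4 of the 8 genes were lower.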
